A study of Rattus norvegicus with 42 samples.

Results

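The genes described here are 9 markers of the excitatory neurons of the hippocampus, chosen by their symbols: Wfs1 and Pou3f1 for field CA1, Pcp4 and Amigo2 for CA2, Bok and Dkk3 for CA3, Neurod6 for pyramidal neurons of all CA fields, and Prox1 and C1ql2 for granule cells of the dentate gyrus. They are 9 of 14304 gene symbols in the count table and hold 10 of its 15516 transcripts. Of these 10, 9 passed the filter on low counts, 1 for each gene, out of 13062 transcripts tested. The remaining transcript, a second form of Pcp4 (NM_001270538), had at most 5.244 estimated counts in an animal and was at 0 in 21 animals after rounding, while the tested form held 99.93% of the counts of that gene.

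RNA sequencing was performed on whole hippocampi of male Sprague Dawley rat pups, with 1 library per animal. Pups were bought in 2 orders and received saline vehicle (VEH, n = 13), phenobarbital (PB, 75 mg/kg, n = 14) or levetiracetam (LEV, 200 mg/kg, n = 14) by intraperitoneal injection on postnatal day 7 (P7). Each treatment group took 1 pup from a litter, and tissue was collected 72 hours later, at P10. The pups of all groups, VEH included, were killed with an overdose of pentobarbital, itself a barbiturate, and perfused. PB is a barbiturate that enhances GABA-A receptor currents and LEV binds the synaptic vesicle protein SV2A, and both are used against neonatal seizures. The comparison of each drug with VEH asked whether a brief exposure of the developing brain leaves a mark on hippocampal transcription, and the comparison of PB with LEV tested the difference between the drugs itself.

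The hippocampus is built from fields of pyramidal neurons, CA1 to CA3, and from the granule cells of the dentate gyrus, whose mossy fibers end on CA3. Each field switches on its own set of genes as its neurons mature, and in the rat the dentate gyrus still adds many granule cells after birth. In RNA from whole tissue, fewer cells of a type and less RNA per cell cannot be told apart.

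Total estimated counts ranged from 9499492 to 14488134 over the 41 animals. The labels hold 2 forms of sample code, which separate animals 1 to 6 of each group from animals 7 to 14, here called the 2 sets, and no label says what the forms stand for. One library went against its label. In VEH animal 1 the Y-linked transcript Eif2s3y had 1 count, against 705 to 1028 in the other 40 animals. The comparisons of treatments and of sets for the 9 markers were therefore also computed without this library. So were the calls in the field, glutamatergic and immature neuron lists given below, and the correlations for which such a value is printed. The counts in the lists of other cells and the remaining correlations were not. The libraries also differed in tissue outside the hippocampus, since the summed level of 9 choroid plexus transcripts of 8 genes ranged from 245 to 55700 normalized counts in VEH, from 243 to 87600 in PB and from 351 to 64600 in LEV. A VEH animal that the study left out entered the fits only as an alternative setting.

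After PB, 1 of the 9 markers was differentially expressed against VEH at an adjusted p under 0.05: Dkk3, a secreted protein of the dickkopf family that is abundant in pyramidal neurons, fell by 12.4%. Over all transcripts tested, 5.39% passed this limit (704 of 13062), 3.46% lower and 1.93% higher after PB. None of the 9 passed both that limit and an absolute log2 fold change of 0.32 or more, the fold limit of the study, against 0.605% of all transcripts. At an unadjusted p under 0.05 there was 1 of 9, beside 20.2% of all transcripts. After LEV, 0 of the 9 markers passed against VEH by edgeR's quasi-likelihood test, against 0.00766% of all transcripts (1 of 13062), 0 had an unadjusted p under 0.05 (5.84% of all transcripts), and DESeq2 also called 0. Between PB and LEV, Dkk3 alone among the 9 passed, against 4.45% of all transcripts (2.78% lower and 1.67% higher after PB). Past both limits were 0 (0.582% of all transcripts), and 3 had an unadjusted p under 0.05 (19.6% of all transcripts). Dkk3 was lower by 13.6% after PB than after LEV. With VEH animal 1 left out, 1, 0 and 1 markers were called in the 3 comparisons, Dkk3 both times.

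The median log2 fold change of the 9 markers was -0.068 for PB against VEH, with 7 lower and 2 higher, beside 0.0046 over all transcripts tested. It was -0.032 for LEV against VEH, with 5 lower and 4 higher, beside 0.00033 over all transcripts. It was -0.042 for PB against LEV, with 5 lower and 4 higher, beside 0.0033. The groups overlapped for each of the 9 genes in each of the 3 comparisons, as the plot of normalized counts by animal shows.

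**Figure D1:**
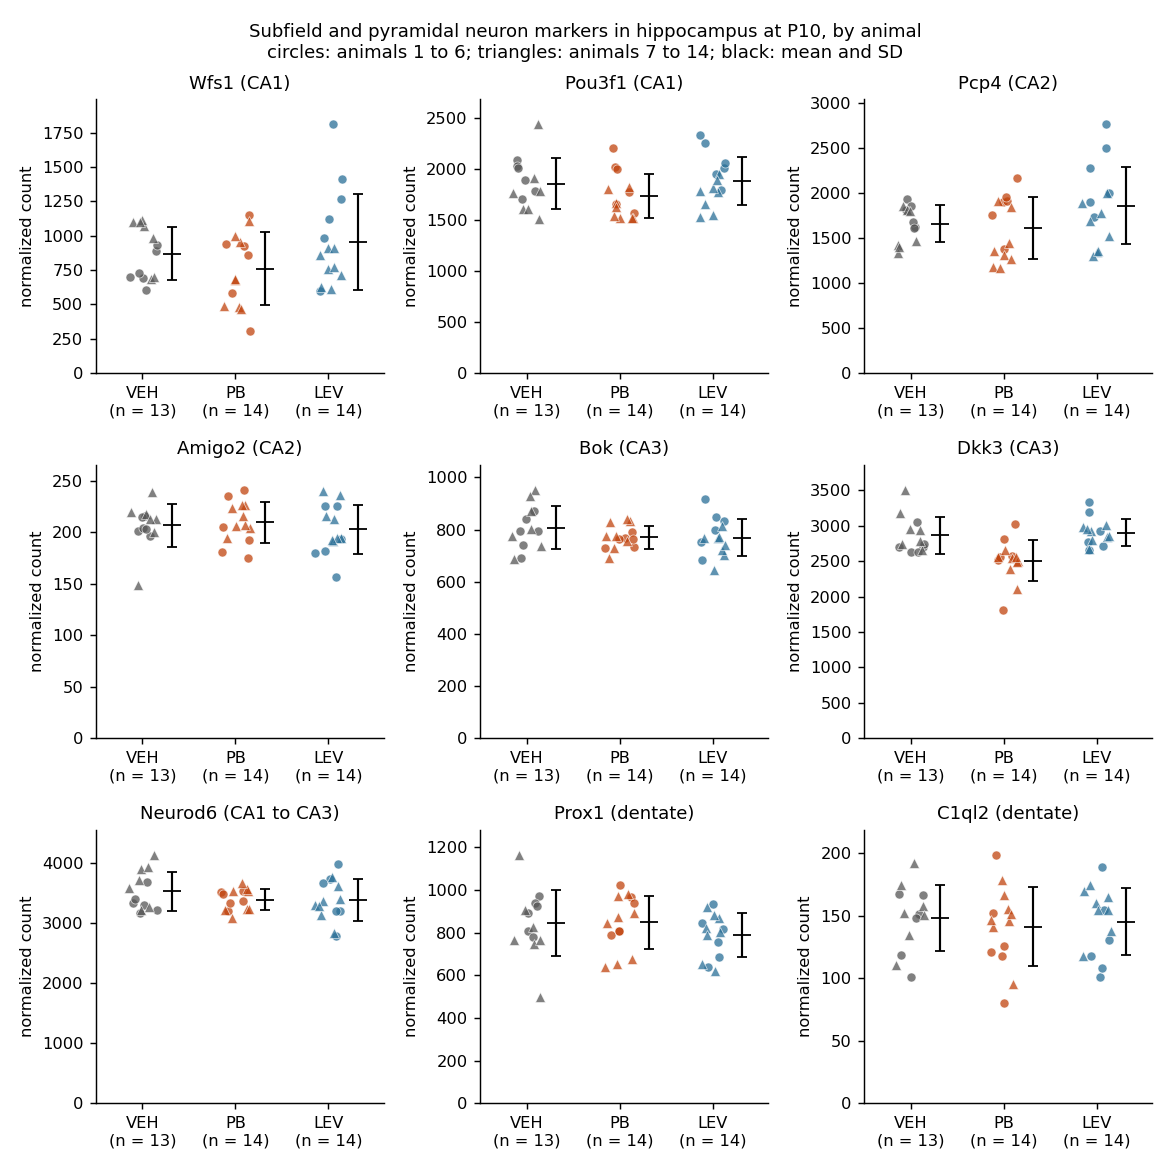
Normalized count (vertical axis, from 0) of each of the 9 markers in each animal of the VEH, PB and LEV groups. Circles are animals 1 to 6, triangles are animals 7 to 14, and the black bar gives the mean and SD. For Dkk3, 11 of 14 PB animals lie below the lowest VEH animal, and for the other 8 markers the groups lie over each other.

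Dkk3 (NM_138519, rn6 chromosome 1, 176940693 to 176983046) ranged in VEH from 2632 to 3511 normalized counts with a median of 2744. In PB it ranged from 1805 to 3020 with a median of 2550, and in LEV from 2653 to 3331 with a median of 2891. The PB animals were thus lower as a group, with 11 of 14 below the lowest VEH animal and 11 of 14 below the lowest LEV animal, while 3 VEH animals lay above the highest PB animal. The means were 2863 ± 260 (SD, n = 13) in VEH, 2507 ± 286 (SD, n = 14) in PB and 2903 ± 191 (SD, n = 14) in LEV. The log2 fold change of PB against VEH was -0.19 (SE 0.051, 95% interval -0.29 to -0.089), with an adjusted p of 0.0188 by the quasi-likelihood test of edgeR after Benjamini-Hochberg correction. In 12 of 14 PB animals the value lay below the VEH mean of the animal's own set. Against LEV the log2 fold change of PB was -0.21 (SE 0.050, adjusted p = 0.0113, edgeR), lower in 13 of 14 animals. In a fit of both sets with separate drug effects, it was -0.20 within animals 1 to 6 (adjusted p = 0.262, edgeR). Within animals 7 to 14 it was -0.22 (adjusted p = 0.0679, edgeR), so that neither set passed there. LEV and VEH differed by 0.02 on the log2 scale (95% interval -0.082 to 0.12, adjusted p = 0.989, edgeR). PB against VEH and LEV against VEH share the VEH animals and are given side by side.

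The fall of Dkk3 against VEH passed with any 1 animal left out and in 12 of 16 other settings, and not in the remaining 4. With only the PB and VEH animals in the fit, the log2 fold change was -0.19 with an adjusted p of 0.0509 (edgeR). With the animal number as a replicate block it was -0.18 with an adjusted p of 0.0532 (edgeR). Within animals 1 to 6 the log2 fold change of PB against VEH was -0.10 (adjusted p = 0.688, edgeR) and within animals 7 to 14 it was -0.26 (adjusted p = 0.0149, edgeR). The difference between the sets did not pass (-0.16, adjusted p = 0.605, edgeR). PB animal 2 was the lowest of all animals for Dkk3 and VEH animal 9 the highest, and without both the log2 fold change was -0.13 with an adjusted p of 0.0566 (edgeR). Without VEH animal 1 it was -0.20 with an adjusted p of 0.0193 (edgeR).

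Bok (NM_017312, chromosome 9, 100829593 to 100840499), a pro-apoptotic member of the Bcl-2 family and the other CA3 marker, ranged from 688.7 to 953.5 in VEH (median 793.8), from 691.2 to 839.5 in PB (median 765.0) and from 645.1 to 918.7 in LEV (median 768.7). The 3 groups lay over each other, although 5 VEH animals exceeded the highest PB animal. Its log2 fold change was -0.07 for PB (adjusted p = 0.448, edgeR) and -0.07 for LEV (adjusted p = 0.914, edgeR) against VEH.

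Of the CA1 markers, Wfs1 (NM_031823, chromosome 14, 78648276 to 78665225), which encodes the endoplasmic reticulum protein wolframin, had the widest spread of the 9, with a biological coefficient of variation of 29.9%. It ranged from 607.9 to 1117 normalized counts in VEH (median 890.2), from 304.4 to 1154 in PB (median 772.3) and from 599.2 to 1811 in LEV (median 885.6). In PB, 5 of 14 animals were below the lowest VEH animal and 1 was above the highest, and in LEV 4 were above the highest. The log2 fold change was -0.20 for PB against VEH (95% interval -0.54 to 0.14, adjusted p = 0.547, edgeR), 0.12 for LEV against VEH (-0.22 to 0.45, adjusted p = 0.971) and -0.32 for PB against LEV (-0.65 to 0.016, adjusted p = 0.282). These intervals include changes beyond the fold limit, so that such a change in Wfs1 was not excluded.

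Pou3f1 (NM_138838, chromosome 5, 142643599 to 142646581), a POU-domain transcription factor, ranged from 1509 to 2439 in VEH (median 1787), from 1519 to 2205 in PB (median 1666) and from 1528 to 2339 in LEV (median 1851). The groups covered nearly the same range, with PB at its lower part. The log2 fold change of PB was -0.10 against VEH (adjusted p = 0.366, edgeR) and -0.12 against LEV (unadjusted p = 0.0442, adjusted p = 0.237, edgeR).

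Pcp4 (NM_013002, chromosome 11, 36851035 to 36912273), a small calmodulin-binding protein, ranged from 1334 to 1930 in VEH (median 1673), from 1170 to 2172 in PB (median 1600) and from 1303 to 2763 in LEV (median 1836). Both drug groups spread wider than VEH, with 4 PB animals below the lowest VEH animal and 5 LEV animals above the highest. Its log2 fold change was -0.04 for PB against VEH (adjusted p = 0.828, edgeR), 0.16 for LEV against VEH (95% interval -0.011 to 0.33, adjusted p = 0.844) and -0.20 for PB against LEV (-0.37 to -0.036, unadjusted p = 0.0184, adjusted p = 0.153). Amigo2 (NM_182816, chromosome 7, 138704125 to 138707222), a cell adhesion protein with leucine-rich repeats, ranged from 148.7 to 238.8 in VEH (median 212.6), from 175.2 to 241.4 in PB (median 206.8) and from 156.2 to 240.3 in LEV (median 194.1). No group stood apart, and its log2 fold change was 0.02 for PB (adjusted p = 0.906, edgeR) and -0.03 for LEV (adjusted p = 0.989, edgeR) against VEH.

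Wfs1 and Pcp4 varied together between animals, as given further on, and their promoters are shown for that reason. The sequences are those of RefSeq on the build GRCr8, 250 bases before to 50 bases after the transcription start, 5′ to 3′ on the strand of the gene. They lie at chr14:78034955-78035254 (plus strand) for Wfs1 and at chr11:49269936-49270235 (plus strand) for Pcp4. Capitals mark a CCAAT box, searched as CCAAT or ATTGG so that both strands were covered.
Wfs1: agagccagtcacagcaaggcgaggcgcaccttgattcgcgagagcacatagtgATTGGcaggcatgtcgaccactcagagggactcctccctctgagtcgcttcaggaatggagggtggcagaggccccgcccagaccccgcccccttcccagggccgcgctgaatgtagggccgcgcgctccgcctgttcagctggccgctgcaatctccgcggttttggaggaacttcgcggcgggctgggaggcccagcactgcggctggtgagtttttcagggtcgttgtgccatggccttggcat
Pcp4: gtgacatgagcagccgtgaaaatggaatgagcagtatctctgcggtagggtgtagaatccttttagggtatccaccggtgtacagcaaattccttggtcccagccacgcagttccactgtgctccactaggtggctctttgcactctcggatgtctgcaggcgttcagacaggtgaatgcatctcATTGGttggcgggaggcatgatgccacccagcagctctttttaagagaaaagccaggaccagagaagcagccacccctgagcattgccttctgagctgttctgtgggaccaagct
Each promoter held 1 such match, as did that of Amigo2, so that 3 of the 5 markers with a sequence had it, beside 37.5% of 33469 rat promoters of the same length. GGGCGG or CCGCCC, the GC box, was found in 2 of the 5 (Amigo2 and Wfs1, 33.1% of all promoters), CAGCTG, an E-box, in 1 (Wfs1, 15.1%), TGACGTCA, the cAMP response element, in 1 (Neurod6, 1.83%), and TATAAA or TTTATA, the TATA box, in 0 (14.2%). The 5 were Amigo2, C1ql2, Neurod6, Pcp4 and Wfs1. A match describes the letters of the window only.

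Neurod6 (NM_001109237, chromosome 4, 85911861 to 85915108), a basic helix-loop-helix transcription factor of excitatory neurons, ranged from 3161 to 4131 normalized counts in VEH (median 3396), from 3074 to 3663 in PB (median 3422) and from 2788 to 3982 in LEV (median 3329). PB held the narrowest range and 5 VEH animals lay above it. The log2 fold change was -0.06 for PB (adjusted p = 0.534, edgeR) and -0.06 for LEV (adjusted p = 0.920, edgeR) against VEH. The 95% interval for PB was -0.15 to 0.037.

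In the dentate gyrus, Prox1 (NM_001107201, chromosome 13, 108382662 to 108440347), the homeobox factor that sets granule cell identity, ranged from 497.9 to 1165 in VEH (median 824.7), from 639.4 to 1024 in PB (median 860.5) and from 621.1 to 934.0 in LEV (median 809.6). The VEH group was the widest and enclosed both drug groups. Its log2 fold change was 0.0058 for PB against VEH (adjusted p = 0.981, edgeR), -0.10 for LEV against VEH (adjusted p = 0.930) and 0.10 for PB against LEV (adjusted p = 0.524). C1ql2 (NM_001105949, chromosome 13, 36378187 to 36379723), a secreted C1q-like protein of the mossy fibers, ranged from 101.1 to 191.8 in VEH (median 151.4), from 80.47 to 198.6 in PB (median 146.1) and from 100.9 to 188.6 in LEV (median 154.3). The groups covered the same range, and the log2 fold change was -0.08 for PB (adjusted p = 0.735, edgeR) and -0.04 for LEV (adjusted p = 0.989, edgeR) against VEH.

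The intervals give the size of change that the data leave possible. For PB against VEH, Dkk3 included, the 95% interval lay within a log2 fold change of 0.32 in either direction for 8 of 9 markers, the exception being Wfs1. For LEV against VEH and for PB against LEV this held for 7 of 9, the exceptions being Wfs1 and Pcp4. In simulated counts of the PB and VEH comparison, 200 of 13062 transcripts were changed at each size. The same test found 85 of 200 with a log2 fold change of 0.20 (42.5%). It found 152 of 200 with 0.32 (76.0%) and 198 of 200 with 1 (99.0%). In the data 704 of 13062 were called, so the adjusted limit fell at another unadjusted p there. The rates pool transcripts, while the biological coefficient of variation of the markers ran from 8.01% (Bok) to 29.9% (Wfs1). They are therefore not detection rates for single markers.

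**Figure D2:**
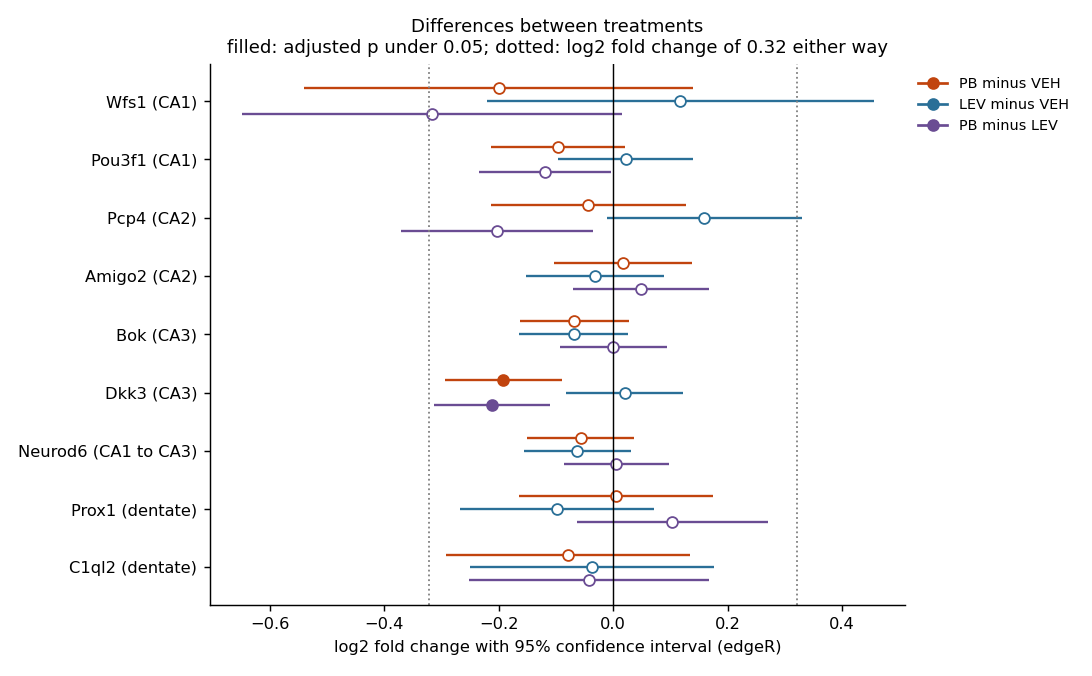
Log2 fold change (horizontal axis) with its 95% confidence interval for PB minus VEH, LEV minus VEH and PB minus LEV, for each marker. Filled points have an adjusted p under 0.05 and dotted lines mark a log2 fold change of 0.32 in either direction. Only the PB intervals of Dkk3, centered on -0.19 and -0.21, carry filled points.

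The 2 sets of animals differed for some markers whatever the treatment. Pcp4 was lower in animals 7 to 14 (1541 ± 264 normalized counts, SD) than in animals 1 to 6 (1931 ± 331), with a log2 difference of -0.32 (SE 0.069, adjusted p = 0.000334, edgeR). Pou3f1 was also lower, at 1722 ± 211 against 1953 ± 207, with a log2 difference of -0.18 (SE 0.047, adjusted p = 0.00299, edgeR). The other 7 markers did not pass, so that 2 of 9 differed between the sets beside 30.2% of all transcripts. Both differences remained without VEH animal 1 (-0.32 and -0.19). The effect of a drug differed between the sets for 0 of the 9 markers at an adjusted p under 0.05 by edgeR, beside 0.0689% of all transcripts for PB against VEH, 0.842% for LEV against VEH and 0.0230% for PB against LEV. Of the 27 tests, 1 had an unadjusted p under 0.05.

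That test was of Wfs1 after LEV. In animals 1 to 6, Wfs1 ranged in VEH from 607.9 to 928.6 (median 714.6) and in LEV from 599.2 to 1811 (median 1194), a log2 fold change of 0.66. In animals 7 to 14 it ranged in VEH from 682.5 to 1117 (median 1072) and in LEV from 614.3 to 911.5 (median 763.0), a log2 fold change of -0.33. LEV animals thus lay high in the lower-numbered set and low in the other. The difference between the sets was -0.99 (SE 0.31, unadjusted p = 0.00248) with an adjusted p of 0.117 by edgeR, so it did not pass. For Pcp4 the corresponding LEV values were 0.33 and 0.025 (adjusted p of the difference = 0.460, edgeR).

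**Figure D3:**
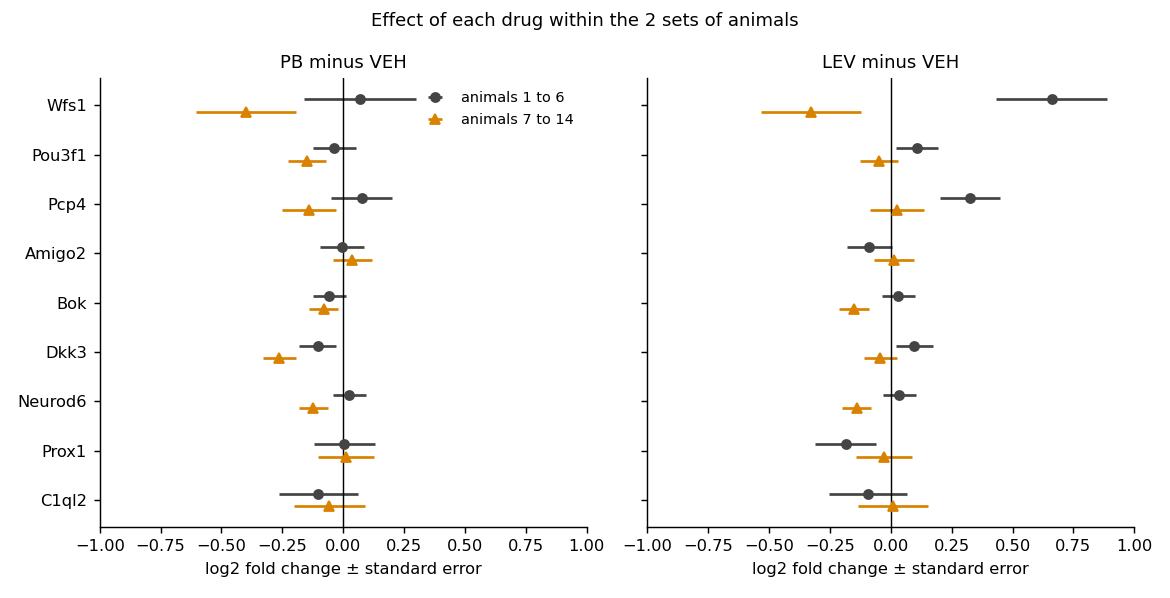
Log2 fold change ± standard error (horizontal axis) of PB minus VEH and of LEV minus VEH for each marker, within animals 1 to 6 (circles) and within animals 7 to 14 (triangles). The sets part most for Wfs1 after LEV, at 0.66 and -0.33, a difference that did not pass the adjusted limit.

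Variation between animals was compared over the 36 pairs of markers on log2 CPM (counts scaled to a common library size). Treatment and set were removed as additive terms, so a drug effect that differs between the sets stays in these values. For LEV against VEH, the log2 fold changes in animals 1 to 6 and 7 to 14 were 0.66 and -0.33 for Wfs1 and 0.33 and 0.025 for Pcp4. The part of such differences in r was not tested. Pearson's r ranged from -0.44 to 0.55 with a median of 0.019 and was above 0 in 19 pairs. The adjusted permutation p of r was under 0.05 in 2 pairs and that of Spearman's rho in 0. Wfs1 and Pcp4 had r = 0.547 and rho = 0.484 over 41 animals (permutation p = 0.0023 and 0.00716, adjusted 0.0414 and 0.112). Without the 2 animals farthest from the median of Wfs1 r was 0.429, and within the sets r reached 0.861 for animals 1 to 6 and 0.285 for animals 7 to 14. Dkk3 and C1ql2 had r = 0.551 and rho = 0.421 (permutation p = 0.00217 and 0.012, adjusted 0.0414 and 0.112). Their r was 0.652 without the 2 animals farthest in Dkk3 and 0.345 without the 2 farthest in C1ql2, and 0.769 and 0.151 within the sets. Prox1 and Pcp4 had r = -0.441 and rho = -0.411 (permutation p = 0.00684 and 0.0133, adjusted 0.0788 and 0.112). Without VEH animal 1 the r of the 3 pairs was 0.547, 0.575 and -0.443.

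The same values were set against the mean level of 9 lists of other cells, which gave 81 relations. Dkk3 ran against the list of immature neurons (Dcx, Sox11, Calb2 and Igfbpl1, genes of neurons that are still migrating or extending their processes). Pearson's r was -0.762 and Spearman's rho -0.789 over 41 animals, each with a permutation p of 1e-05, the smallest that 100000 permutations can give, and an adjusted p of 0.00081. Without the 2 animals farthest from the median of the list r was -0.701. Within the sets r was -0.787 for animals 1 to 6 and -0.808 for animals 7 to 14, and without VEH animal 1 it was -0.744. With treatment and set removed as additive terms, animals with less Dkk3 therefore had more of these transcripts, as the plot of both by animal shows. No share of all transcripts that follow this list as closely is given beside it, so the relation is not shown to be particular to Dkk3. The points share the library and its scaling. Neurod6 ran with the list of astrocytes (r = 0.591, rho = 0.578, adjusted permutation p = 0.00446 and 0.00972), with r = 0.580 without the 2 farthest animals and 0.482 and 0.669 within the sets. That list averaged 12 transcripts of 5 genes, most of them forms of Aqp4 and Slc1a3. The list of oligodendrocytes averaged 9 transcripts of 4 genes, most of them forms of Mbp. In 2 further relations, r passed and rho did not (adjusted permutation p of rho = 0.0557 in each): Dkk3 with the list of oligodendrocytes (r = 0.637, 0.416 without the 2 farthest animals, 0.789 and 0.310 within the sets) and C1ql2 with the list of interneurons (r = 0.617, 0.407 without them, 0.611 and 0.656 within the sets). For Pou3f1 and the list of choroid plexus, rho passed and r did not (rho = -0.545 and r = -0.450, adjusted permutation p = 0.0186 and 0.0618), with r = -0.387 without the 2 farthest animals and -0.742 and -0.261 within the sets.

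**Figure D4:**
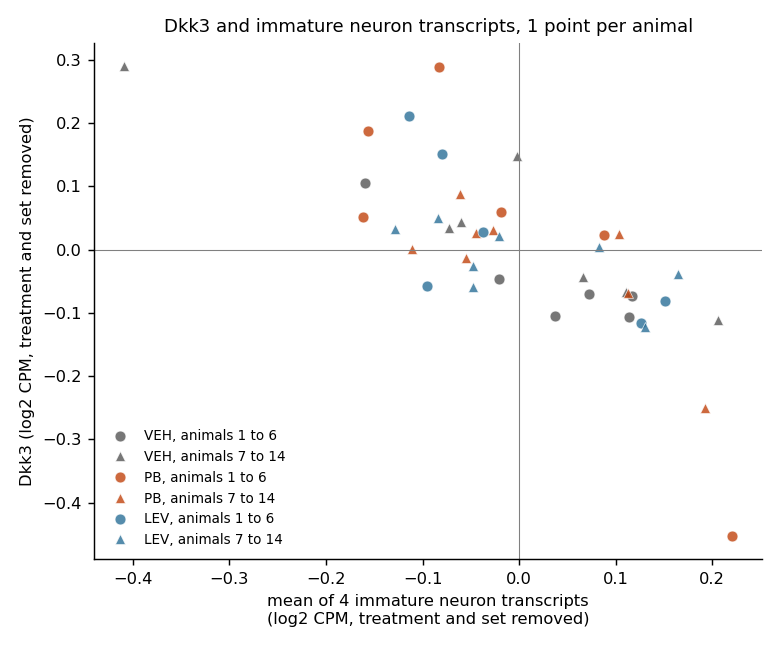
Dkk3 (vertical axis) against the mean of 4 immature neuron transcripts (horizontal axis), both as log2 CPM with treatment and set removed, 1 point per animal. Colors give the treatment and shapes the set, and the points fall from upper left to lower right with r = -0.762.

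Transcripts of other cells that passed in PB against VEH are counted here by list, beside 5.39% of all transcripts tested, and no list was tested as a whole. Of the 4 immature neuron transcripts, 2 rose against VEH (Calb2 by 0.32 on the log2 scale, adjusted p = 0.0432, and Sox11 by 0.31, adjusted p = 0.00723, edgeR). Against LEV, 2 rose, beside 1.67% of all transcripts (Dcx by 0.29, adjusted p = 0.00761, and Sox11 by 0.29, adjusted p = 0.0138, edgeR). Calb2 is also treated by the study among its GABA neuron genes, as a rise after PB just short of its fold limit. In the same comparison with VEH, 3 of 5 interneuron transcripts fell, and their summed level ranged from 4600 to 6930 in VEH, from 3960 to 6530 in PB and from 5480 to 7190 in LEV. Of 3 skeletal muscle transcripts tested 3 fell. The sums over all 16 transcripts of that list, tested or not, were 116 to 447 in VEH, 68.8 to 161 in PB and 106 to 542 in LEV. For Atp2a1, Myh4 and Acta1, named after their values were seen, the log2 fold change was -4.06, -3.45 and -0.72 in animals 1 to 6 and 0.34, -0.20 and -0.23 in animals 7 to 14. Of 4 thalamic transcripts tested 2 rose. The sums over all 5 transcripts of that list were 1200 to 1560 in VEH, 1290 to 1610 in PB and 1310 to 1590 in LEV. Oligodendrocyte transcripts fell in 1 of 9 and astrocyte transcripts fell in 1 and rose in 1 of 12, neocortical transcripts fell in 1 of 4, and 0 of 9 choroid plexus and 0 of 4 microglial transcripts passed. By unadjusted p under 0.05, edgeR had 0 choroid plexus transcripts and 1 microglial transcript, beside 20.2% of all transcripts. With the choroid plexus level or the thalamic level as a covariate, Dkk3 still passed in PB against VEH. Its r with these lists was only -0.013 and 0.118, so that these covariates could change its result little. The lists that Dkk3 followed more closely were not used as covariates. The part of the other lists in the fall of Dkk3 was not tested.

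The wider markers of the same fields and of glutamatergic neurons held 40 genes, of which 34 were in the table with 39 transcripts, and 35 of these were tested. Against VEH, 5 of the 35 fell after PB and 0 rose, beside 3.46% lower and 1.93% higher of all transcripts, with 0 past both limits (0.605% of all transcripts) and a median log2 fold change of -0.039. The 5 transcripts belong to 4 genes. These lists were chosen with earlier results of these data known, so their counts, here and between PB and LEV, are a description only. In CA1, Fibcd1, an acetyl-group binding membrane receptor, fell by 0.22 on the log2 scale in both of its entries, which share reads (adjusted p = 0.0285 and 0.0222, edgeR). In CA2, Rgs14, a regulator of G protein signaling that restrains plasticity there, fell by 0.26 (SE 0.053, adjusted p = 0.00272, edgeR), lower in 14 of 14 animals, from 674.5 ± 52.3 (SD, n = 13) to 561.5 ± 71.4 (SD, n = 14) normalized counts. Among the glutamatergic genes, Camk2a, the alpha subunit of calcium/calmodulin-dependent kinase II, fell by 0.26 (adjusted p = 0.0364, edgeR) and Nrgn, the postsynaptic calmodulin-binding protein neurogranin, fell by 0.29 (adjusted p = 0.0163, edgeR). Camk2a no longer passed without VEH animal 1, where the other 4 transcripts still did. In the wider CA3 and dentate lists 0 of 6 and 0 of 5 passed by edgeR, with 1 and 0 at an unadjusted p under 0.05 (20.2% of all transcripts).

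Between PB and LEV, 4 of the 35 were lower and 1 was higher after PB, beside 2.78% lower and 1.67% higher of all transcripts. Past both limits were 2 of the 35, beside 0.582% of all transcripts. Rgs14 was lower by 0.34 on the log2 scale (SE 0.052, adjusted p = 0.000163, edgeR), in 14 of 14 animals, and passed both limits. The CA1 genes Ccn3, a secreted matricellular protein, and Man1a1, a Golgi mannosidase, were lower (log2 fold changes -0.29 and -0.25, adjusted p = 0.00382 and 0.00622, edgeR), as was Nrgn (-0.26, adjusted p = 0.0306, edgeR). Zbtb20, a transcription factor of hippocampal pyramidal and granule neurons, was higher by 0.46 (SE 0.12, adjusted p = 0.0176, edgeR) and passed both limits, with 372.6 ± 86.9 normalized counts in PB and 269.9 ± 60.6 in LEV, while its log2 fold change against VEH was -0.04 for PB (adjusted p = 0.890, edgeR) and -0.50 for LEV (unadjusted p = 0.000122, adjusted p = 0.179, edgeR), lower in 13 of 14 LEV animals. The study also lists Zbtb20 among astrocyte genes. By DESeq2 after subtraction of batch effects, it called this transcript lower after LEV than after VEH. Between LEV and VEH 0 of the 35 passed by edgeR (0.00766% of all transcripts), with 5 at an unadjusted p under 0.05 (5.84% of all transcripts).

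**Figure D5:**
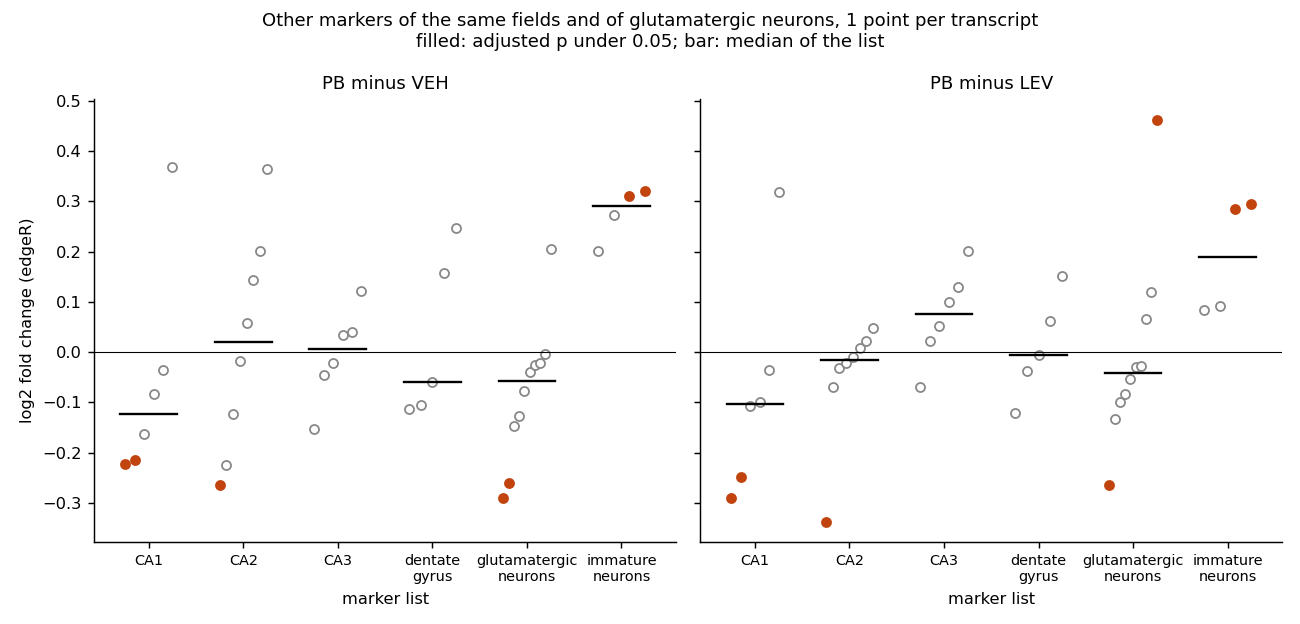
Log2 fold change (vertical axis) of each tested transcript in 5 wider lists of field and glutamatergic markers and in the list of immature neurons, for PB minus VEH and PB minus LEV. Filled points have an adjusted p under 0.05 and bars are list medians. Filled points lie below 0 in the CA1, CA2 and glutamatergic lists except for Zbtb20 at 0.46 against LEV, and above 0 in the list of immature neurons.

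The transcripts whose levels followed each marker most closely between animals were read by Spearman's rho over 41 animals on the same values, as a description. Dkk3 was closest to Chn1 (rho 0.806), Sytl2 (0.776) and Camkk1 (0.768), and Prox1 to Dcc (0.818), Zeb2 (0.762) and Nrp1 (0.754). Wfs1 was closest to C2cd2l (0.763), Gpr6 (0.749) and Sidt1 (0.729), and Pou3f1 to its relative Pou3f3 (0.668), Mylip (0.656) and Taf6l (0.654). Pcp4 was closest to 3 genes of oxidative phosphorylation, Atp5if1 (0.728), Atp5me (0.718) and Uqcrq (0.708). Neurod6 was closest to Polr3f (0.728), Capza2 (0.710) and Fstl5 (0.691), C1ql2 to Cacng8 (0.748), Adra1d (0.743) and Gal3st3 (0.739), Bok to Pcsk7 (0.678), Ankrd13d (0.674) and Emc10 (0.672), and Amigo2 to Cabyr (0.608), Itpkc (0.558) and Lmo2 (0.556). No 2 of the 9 markers shared a transcript among these 27.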

How the data were processed

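Hippocampal RNA of 42 rats was sequenced, 1 library per animal. The authors aligned reads with STAR 2.7.3a to rn6 and assigned them to RefSeq transcripts by the E/M method of Partek. The deposited values are the estimated counts the authors obtained in this way, without normalization, and 13.7% of them were not whole numbers. A table of the authors' own DESeq2 comparisons, holding p values, ratios, fold changes and group means, was not used. The study also subtracted batch effects, and the deposited counts do not carry that step.

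Here the counts were rounded and fitted in R 4.3.3 with edgeR 4.0.16 (TMM, filterByExpr by treatment, glmQLFit and glmQLFTest) for 41 animals, with treatment and the form of the sample code as terms. Effective library sizes were 9588079 to 13786159, and low counts limit the precision of rare transcripts. P values were adjusted by Benjamini-Hochberg over all 13062 transcripts tested. Normalized counts are counts scaled by effective library size. The test was checked on simulated counts. Correlations used log2 CPM (prior count 2) with treatment and code form removed as additive terms and 100000 permutations within treatment and code form.

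All 9 markers were named, and of the wider lists each transcript past the adjusted limit of 0.05. Of the list of immature neurons, members that passed were named after their values were seen. For each marker the 3 transcripts closest by rho were named. The markers and lists were chosen with earlier results of these data known. Same-numbered animals of different groups are not stated to share a litter. Of 40 same-numbered pairs 10 correlated above 0.1 (range -0.332 to 0.329). No share for pairs of unlike numbers was computed beside it, so this count cannot tell whether the numbers follow litters. The main fit did not take the numbers as pairs and holds no term for litter. The listed genes Gpr161, Map3k15, Dsp, Npnt, Dock10, Emx1 and Eomes were not analysed here. Pcp4 is also on the study's list of GABA neuron genes and Wfs1 on its list of astrocyte genes.

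Alternatives, each tried alone, were DESeq2 1.42.0, the size factors of DESeq2 in edgeR, testing every transcript or only those averaging 50 counts or more, leaving out the code form or crossing it with treatment, fitting each set by itself, blocking on the animal number, adding the excluded VEH animal, fitting 2 groups at a time, a robust dispersion, summing transcripts by gene, choroid plexus or thalamic level as a covariate, and dropping each animal in turn. Leaving out PB animal 2 with VEH animal 9, and the further checks without VEH animal 1, were chosen after seeing the data.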

Additional observations from a re-analysis of the deposited data

Results flagged for a closer look

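The deposited counts include VEH animal 7, which the study left out and which entered the fits above only as an alternative setting, the study having dropped it for coverage unlike that of the other samples. Its Y-linked transcript Eif2s3y had 115 counts. Over all 13062 transcripts tested, 63.7% lay outside the range of the 13 other VEH animals in this library, 31.8% above and 31.9% below, and 52.2% lay outside all 41 animals, so the markers' values are those of a library that differed throughout. With all 42 libraries normalized together, 3 of the 9 markers in this animal lay above all 13 VEH animals. Wfs1 was at 1714 normalized counts (607.3 to 1115 in the 13), Pou3f1 at 2612 (1507 to 2437) and C1ql2 at 280.5 (101.0 to 191.6). Another 4 markers lay below the 13, with Pcp4 at 693.8 (1332 to 1928), Neurod6 at 1550 (3158 to 4127), Bok at 683.4 (688.0 to 952.5) and Dkk3 at 2605 (2629 to 3507). Pou3f1 and C1ql2 were also above, and Pcp4 and Neurod6 below, all 41 animals.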

How the results depend on the processing

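Dkk3 in PB against VEH passed the adjusted limit in 41 of 41 fits without 1 animal (log2 fold change -0.21 to -0.16, adjusted p = 0.00636 to 0.0409) and in 12 of 16 other alternatives (adjusted p = 0.00803 to 0.681, edgeR or DESeq2). The count of markers called was 0 instead of 1 with animals 1 to 6 alone (-0.10, adjusted p = 0.681), with the animal number as a replicate block (-0.18, adjusted p = 0.0532), with only the 2 groups compared (-0.19, adjusted p = 0.0509) and without PB animal 2 and VEH animal 9 (-0.13, adjusted p = 0.0566). In PB against LEV it passed in 41 of 41 and 15 of 16, with 0 called in animals 1 to 6 alone (-0.18 to -0.24 over the fits without 1 animal, -0.21 and adjusted p = 0.264 in that set). The cause of these losses was not tested. The block took calls over all transcripts in PB against VEH from 704 to 447, and 7 of 41 animals correlated best with an animal of their own number. The count to be had from unrelated numbers was not set beside it, so it cannot tell whether the numbers follow litters. Over alternatives these calls ran from 64 (animals 1 to 6 alone) to 899 (DESeq2), and from 442 (without PB animal 7) to 891 (without PB animal 5) with 1 animal left out. Those past both limits (79) ran from 17 (animals 1 to 6 alone) to 168 (animals 7 to 14 alone), and were 52 and 115 without PB animal 7 or 5. In PB against LEV, calls (581) ran from 81 (animals 1 to 6 alone) to 745 (DESeq2) and from 283 to 778 without PB animal 7 or 5, and those past both limits (76) from 24 (animals 1 to 6 alone) to 93 (no filter), and were 39 and 101 without PB animal 7 or 5. In LEV against VEH, calls (1) ran from 0 to 346 (animals 1 to 6 alone) and those past both limits (0) to 170 in that set. Among correlated pairs of markers, 2 became 1 without the 2 farthest animals and 0 by Spearman's rho.

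Sign changes touched log2 fold changes that passed in no setting. In PB against VEH they were Wfs1 0.071, Pcp4 0.076, Amigo2 -0.00535 and Neurod6 0.025 in animals 1 to 6 alone, Pcp4 0.012, Neurod6 0.0024 and Prox1 -0.023 with all 14 VEH animals, Prox1 -0.0059 with the block, and Pcp4 0.017, Amigo2 -0.0095 and Prox1 -0.055 without PB animal 2 and VEH animal 9. In LEV against VEH they were Bok 0.037 and Neurod6 0.040 in animals 1 to 6 alone, Wfs1 -0.33, Pou3f1 -0.049, Amigo2 0.013, Dkk3 -0.044 and C1ql2 0.0077 in animals 7 to 14 alone, and Pou3f1 -0.027 with all 14 VEH animals. In PB against LEV, Bok was -0.000257 by DESeq2, -0.000139 with its size factors, -0.0032 without a filter, -0.0094 with treatment by code form terms, -0.093 in animals 1 to 6 alone, -0.0011 with 2 groups and -0.0028 with the thalamic level, Neurod6 was -0.015 in animals 1 to 6 alone and -0.00147 with the thalamic level, and C1ql2 was 0.0023 without PB animal 2 and VEH animal 9. With 1 animal left out, PB against VEH ran from -0.080 to -0.014 for Pcp4 (0.017 with both animals out), from -0.018 to 0.035 for Amigo2 and from -0.042 to 0.058 for Prox1, and PB against LEV from -0.017 to 0.023 for Bok, from -0.013 to 0.029 for Neurod6 and from -0.099 to 0.0048 for C1ql2.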
